A study of Drosophila melanogaster with 2 samples.

Results

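The 10 genes described here encode the core Polycomb group proteins of Drosophila melanogaster. They were listed by symbol, with earlier results of these data known, and all 10 were found by that symbol. The annotation of assembly dm6 held 13968 protein-coding genes. The question asked of the data was where on chromatin, at and around these genes, the predicted zinc-finger protein CG31441 was found. Of the 10 genes, 8 had a peak summit within 5 kb, against 47.4% of all protein-coding genes, and 5 had a summit within 500 bp of a transcription start site (TSS), against 18.2%. Sce and pho had none within 5 kb. The highest signal lay at the Sfmbt promoter, and the X-linked ph-d and ph-p pair carried the most summits.

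The samples formed 1 group of 2 biological replicates. All flies were transgenic for a fusion of CG31441 with eGFP, a green fluorescent tag. Their embryos were taken whole at 0 to 16 hours of age, the chromatin was sonicated, and an anti-GFP antibody was used for ChIP-seq, which sequences the DNA bound by the tagged protein. The labels do not name the promoter that drives the transgene, and an antibody field names the tagged protein itself. Whole embryos pool many cell types and stages, so a peak cannot be assigned to a cell type. Untagged embryos and control libraries were not analysed here, and no test was made between replicates of a single group.

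The deposited values are lists of peaks, each with a summit and a signal. The main list was the conservative list of the series, in which peaks had to repeat in rank between the replicates (irreproducible discovery rate, IDR). It held 6501 peaks, of which 6476 were nuclear, with a median signal of 180.4 and a highest signal of 950.5. The thresholded lists of the single replicates held 4964 peaks (median signal 129.8) in replicate 1 and 5484 (median 88.1) in replicate 2. Signal is the authors' value per peak and its scale is not stated, so signals and ratios from different lists describe those lists and are no measure of binding. A mean and SD over both replicates includes any difference in scale between their lists. Read counts were not used here and the depth of the libraries is unknown.

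Polycomb group proteins keep genes silent through development and act in large complexes. In Polycomb repressive complex PRC1, Pc reads methylated histone H3 through its chromodomain, the closely similar tandem genes ph-p and ph-d encode polyhomeotic proteins that polymerise, Psc and its relative Su(z)2 compact chromatin, and Sce is the RING ubiquitin ligase for histone H2A. In PRC2, E(z) is the methyltransferase for histone H3, and Su(z)12 is a subunit needed for its activity. In the Pho repressive complex (PhoRC), the zinc-finger protein pho binds DNA at Polycomb response elements, and Sfmbt is its partner protein. Some Polycomb group genes are themselves known targets of Polycomb repression, the ph locus among them.

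Sequences under 5 summits near these genes are shown first. They include the highest and lowest signal and the lowest G and C content found there (17.8% to 41.6% in these windows, against up to 50.5% over all 23). Each is the plus strand of dm6 from 50 bp before to 50 bp after the summit (RefSeq genome of that assembly), and capitals mark runs of at least 6 A or T bases.
Sfmbt promoter, chr2L:13176843-13176943, the highest signal: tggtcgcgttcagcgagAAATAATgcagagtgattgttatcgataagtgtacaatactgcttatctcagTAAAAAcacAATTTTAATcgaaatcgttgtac
between ph-d and ph-p, chrX:2124060-2124160, the highest on X: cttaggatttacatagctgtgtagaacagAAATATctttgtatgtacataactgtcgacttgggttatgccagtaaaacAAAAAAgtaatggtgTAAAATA
beyond the 3' end of Sfmbt, chr2L:13165248-13165348, the lowest G and C content: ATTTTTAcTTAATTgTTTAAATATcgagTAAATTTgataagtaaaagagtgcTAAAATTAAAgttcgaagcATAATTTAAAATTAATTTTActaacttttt
ph-p intron, chrX:2135291-2135391: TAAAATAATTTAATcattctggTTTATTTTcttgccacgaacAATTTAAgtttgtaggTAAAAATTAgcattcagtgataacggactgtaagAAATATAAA
D2hgdh intron upstream of ph-p, chrX:2142265-2142365, the lowest signal: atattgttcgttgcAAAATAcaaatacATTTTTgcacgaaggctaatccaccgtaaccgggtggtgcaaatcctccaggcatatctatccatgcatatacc
The window beyond Sfmbt had 59 of its 101 bases in such runs, the longest of 20 bases, and the ph-p intron had 47, against 22 at the Sfmbt promoter, 19 between ph-d and ph-p, and 12 at the summit with the lowest signal.

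A summit within 500 bp of a TSS was found at 5 of the 10 Polycomb group genes (50%), against 18.2% of all protein-coding genes. They were ph-d and Su(z)2 of PRC1, E(z) and Su(z)12 of PRC2, and Sfmbt of PhoRC. A summit inside the gene was found at 6 of 10 (ph-p, ph-d, Psc, Su(z)2, E(z) and Su(z)12), against 12.7% of all protein-coding genes and 12.2% of the 7433 genes in the members' range of lengths, from 1599 to 14998 bp. A summit within 5 kb was found at 8 of 10, against 47.4% of all genes. With 10 genes, several of which are neighbours and share summits, these counts are a description and carry no test. Just inside the 500 bp window lay a ph-d summit at 387 bp and an Sfmbt summit at 390 bp, and just outside it lay the ph-p summits at 505 and 529 bp. Su(z)2 had a summit 4994 bp away, just inside the 5 kb window.

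**Figure D1:**
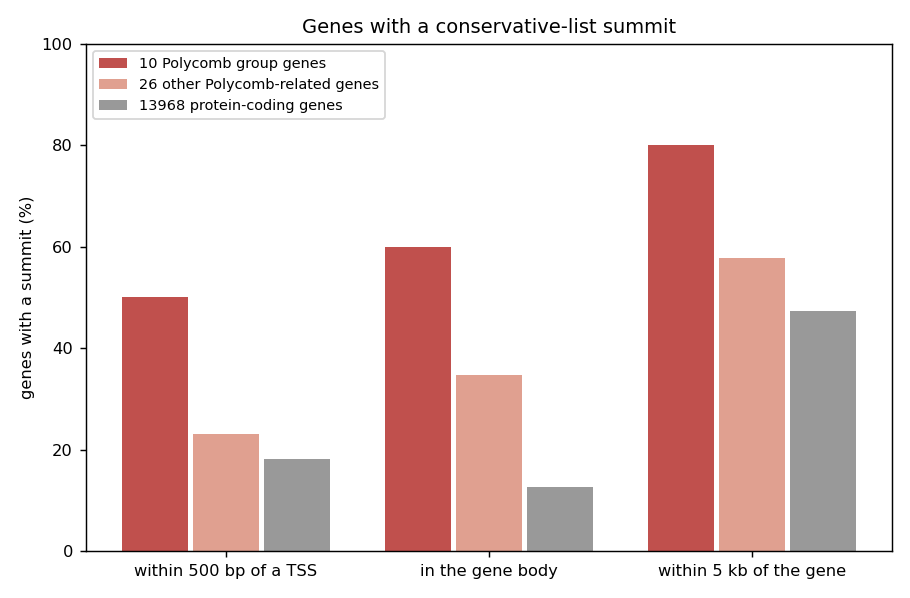
Share of genes (%) with a summit of the conservative list within 500 bp of a TSS, in the gene body and within 5 kb of the gene, for the 10 Polycomb group genes, 26 other Polycomb-related genes and all 13968 protein-coding genes. The bars of the 10 genes stand at 50%, 60% and 80%, above those of all protein-coding genes at 18.2%, 12.7% and 47.4%, and bars have no error because each is a share of a fixed list. Gene lengths differ between the lists and are not taken into account in the bars.

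In all, 23 distinct summits lay within 5 kb of the 8 genes, and 3 of these were near both ph-d and ph-p. Their signal had a median of 273.4 and ran between 40.2 and 849.6, against a median of 180.4 over all nuclear summits. Among the 50 strongest summits of the list were 4 of the 23, at Sfmbt, Psc, Pc and between ph-d and ph-p. Of the 23, 6 lay in the 5' untranslated region of an annotated transcript, 9 in introns and 8 between genes, and 0 in coding exons. Among TSSs of protein-coding genes, the nearest was that of one of these genes for 14, and that of another gene for 9. The same shares over all nuclear summits are not given here, so these counts describe the 23 summits and are not set apart from the list.

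**Figure D2:**
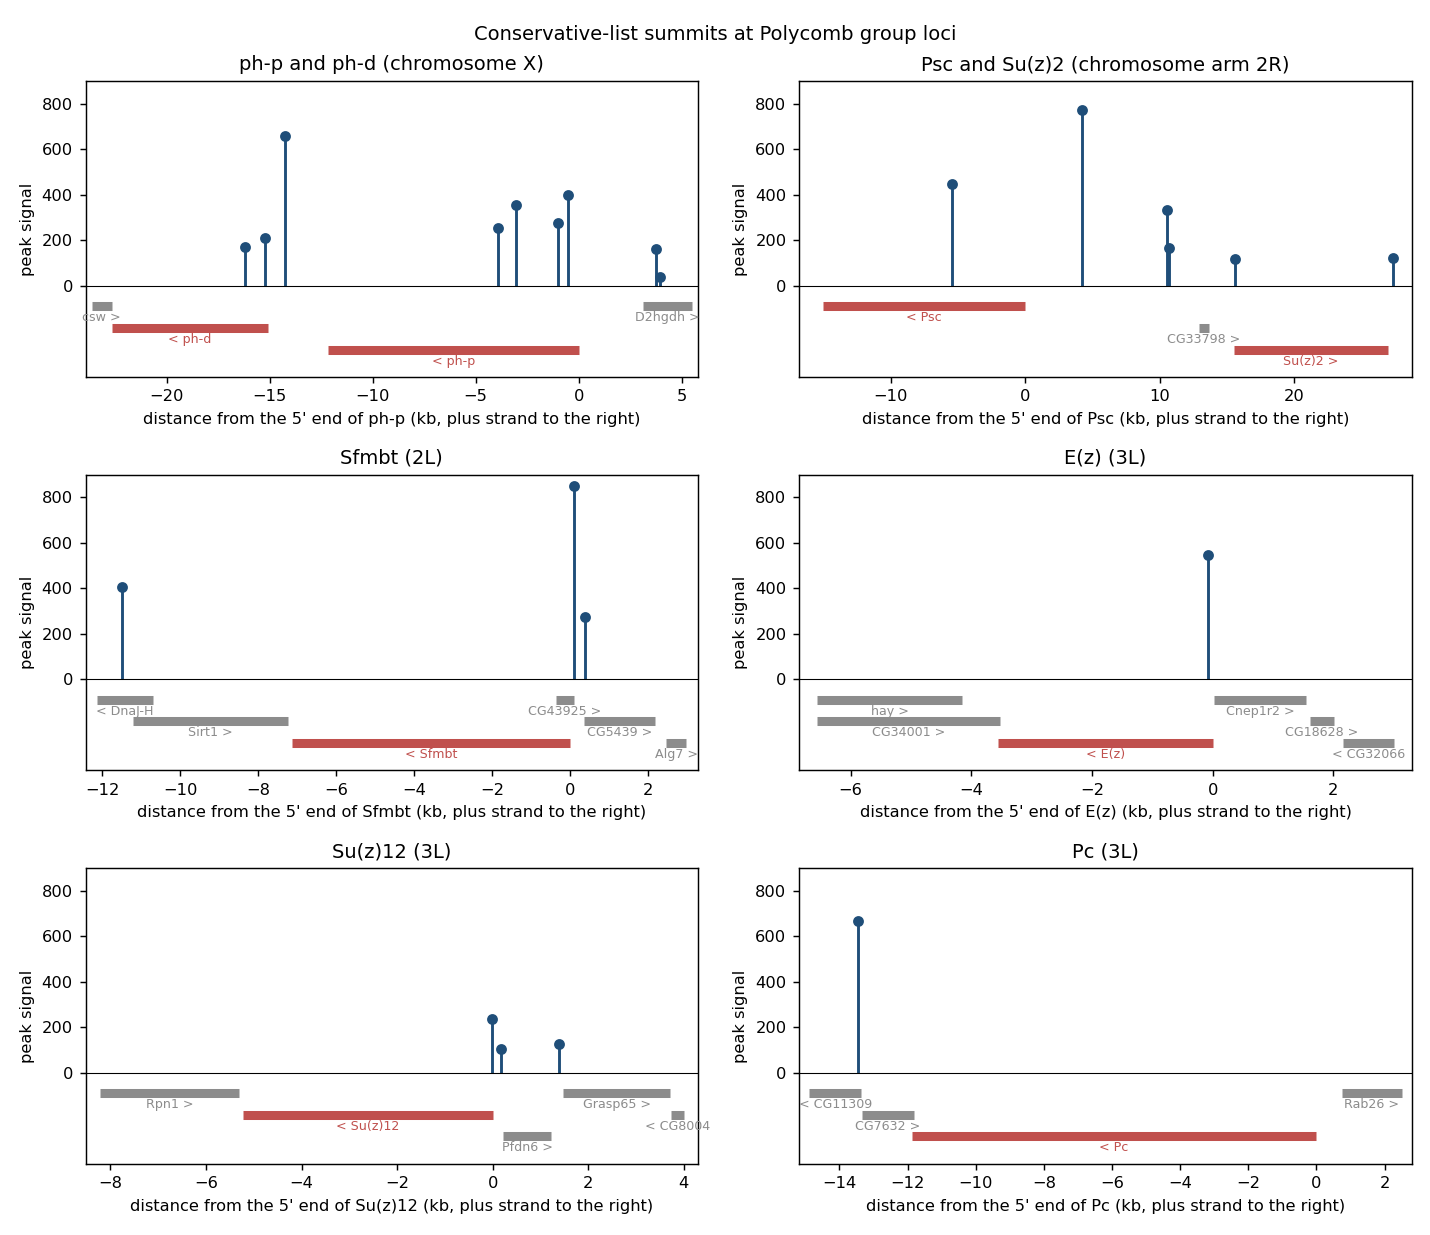
Summits of the conservative list along 6 loci, with distance from the 5' end of the named gene (kb, plus strand to the right) on the horizontal axis and peak signal on the vertical axis. Each stem is 1 summit, red bars are Polycomb group genes and grey bars their neighbours, with arrowheads for the direction of transcription; the tallest stems are 849.6 at Sfmbt, 772.9 upstream of Psc, 665.0 beyond the 3' end of Pc and 659.0 between ph-d and ph-p.

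The gene for the chromodomain protein of PRC1, Pc (FBgn0003042, 3L from 21306138 to 21318020, minus strand), had no summit at its promoter or in its body. Its only summit within 5 kb lay 1564 bp beyond the 3' end of the gene and 13446 bp from the Pc TSS, with a signal of 665.0, rank 33 of the list. This summit was in an intron of CG11309, 84 bp from the CG11309 TSS and 123 bp from that of CG7632, so it also lies at the start of those genes. The signal there was 337.2 in replicate 1 and 329.8 in replicate 2 (333.5 ± 5.26, SD, n = 2). That ratio of 1.02 was exceeded by 82.8% of the peaks found in both lists, whose median ratio was 1.32. An annotated roo transposable element covers 9101 bp, or 76.6%, of Pc, and 81.5% of the gene is soft-masked as repeat or low-complexity sequence, against a median of 8.20% among protein-coding genes of the members' range of lengths. Whether that masked sequence bears on the absence of summits in Pc was not tested.

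The ph-p and ph-d genes lie in tandem on X, both on the minus strand, and 7 summits were spread over 15687 bp from a ph-d intron to the 5' untranslated region of ph-p. With the 2 further summits upstream in D2hgdh, ph-p had 9 summits within 5 kb, a number that 73 protein-coding genes (0.523%) reached or passed, and 5 (0.0673%) among the genes of the members' range of lengths. Only 4 of the 9 had a ph-p TSS as the nearest, and the others were nearest to ph-d or D2hgdh. The less strict list held 8, without the D2hgdh summit of lowest signal (40.2), and the share of genes reaching 8 is not given here. The ph-d gene had 3 summits within 5 kb, a number that 1805 protein-coding genes (12.9%) reached or passed. None of the summit windows at this pair matched another place in the genome over at least 100 bp, the paralogue included.

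Inside ph-p (FBgn0004861, X from 2126210 to 2138371) there were 4 summits, all toward its 5' end and none within 500 bp of a TSS. The strongest, at 2137866 in the 5' untranslated region, 505 bp from a TSS, had a signal of 397.8, with 257.2 in replicate 1 and 187.3 in replicate 2 (222.3 ± 49.4, SD, n = 2). The next, 482 bp away at 2137384 in an intron, had 276.6, with 146.3 in replicate 1 and 154.2 in replicate 2. This was the only one of the 20 summits found in both replicates whose signal was higher in replicate 2. In the list of replicate 2 alone these summits lay at 455 and 480 bp from a TSS, inside the window that they missed in the conservative list, so the call at the ph-p promoter turned on the placing of the summit.

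A pair of intronic summits followed deeper in ph-p. The summit at 2135341, 1281 bp from a TSS and shown above, had a signal of 356.9, with 182.4 in replicate 1 and 172.1 in replicate 2 (177.2 ± 7.26, SD, n = 2). The summit at 2134436, 2186 bp from a TSS, had 253.9, with 132.8 and 127.3 in replicates 1 and 2 (130.1 ± 3.91, SD, n = 2). Their ratios of replicate 1 to replicate 2 were 1.06 and 1.04, where all peaks found in both lists had a median ratio of 1.32. An FB element makes up 11.9% of ph-p. The remaining summits of ph-p, at 2142110 (signal 161.7) and 2142315 (40.2), lay in an intron of D2hgdh, which encodes a hydroxyglutarate dehydrogenase, 577 and 372 bp from the D2hgdh TSS. They matched the same peak in each replicate list (94.0 in replicate 1 and 73.6 in replicate 2).

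At ph-d (FBgn0004860, X from 2115727 to 2123286) the promoter held 2 summits. That at 2123162, in the 5' untranslated region 124 bp from the TSS, had a signal of 208.5, with 110.9 in replicate 1 and 82.5 in replicate 2 (96.7 ± 20.1, SD, n = 2). That at 2122179, in the intron and 387 bp upstream of an internal TSS, had 168.8, with 95.3 and 72.0 in replicates 1 and 2 (83.7 ± 16.4, SD, n = 2). The first lay above and the second below the median of the list, 180.4. The gap of 2923 bp between ph-d and ph-p held a far stronger summit at 2124110, 824 bp upstream of ph-d and 2100 bp past the 3' end of ph-p, with a signal of 659.0 at rank 38. Replicate 1 had 395.2 there and replicate 2 had 252.4 (323.8 ± 101, SD, n = 2), and the replicate summits lay 9 bp apart. Each replicate list held a weaker second summit in the same gap, of 104.5 in replicate 1 and 27.6 in replicate 2.

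Psc and Su(z)2 are related genes that point away from each other on 2R, with 15506 bp between their 5' ends and 3 summits in that gap. Psc (FBgn0005624, 2R from 12965997 to 12980994, minus strand) had an intronic summit at 12975583, 5075 bp from a TSS, with a signal of 448.0, and 241.0 in replicate 1 and 207.2 in replicate 2 (224.1 ± 23.9, SD, n = 2). The summit at 12985205, 4211 bp upstream of Psc in the gap, had a signal of 772.9, rank 10 of the list. Its signal was 407.1 in replicate 1 and 348.4 in replicate 2 (377.7 ± 41.5, SD, n = 2), which was rank 16 in both replicate lists. Replicate 2 also had a weaker thresholded summit of 20.1 nearby, at 12985405, in an exon of the non-coding RNA gene lncRNA:CR44339. The signal here therefore cannot be given to Psc alone. The Psc promoter itself had no summit in the conservative list, and the less strict list of the series added a summit of 96.3 at 45 bp from the TSS and an intronic one of 113.8.

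Su(z)2 (FBgn0265623, 2R from 12996501 to 13007911, plus strand) had 4 summits within 5 kb, and none had a similar thresholded signal in both replicates. The summit at 12991507 in the gap, 4994 bp upstream, had 333.4, with 263.6 in replicate 1 and 75.0 in replicate 2. That ratio of 3.51 was exceeded by 1.33% of the 3999 peaks found in both lists. The neighbouring summit at 12991708, which shares its interval, had 167.3, with 111.8 in replicate 1 and 6.51 in replicate 2. The nearest TSS of a protein-coding gene to both was that of CG33798, 2390 and 2189 bp away. The promoter summit of Su(z)2, 41 bp from the TSS in the 5' untranslated region, had 117.5 and no thresholded peak in either replicate, and the ranked lists held 72.4 in replicate 1 and 56.6 in replicate 2 there. The fourth, 396 bp past the 3' end, had 123.7 and a thresholded peak in replicate 2 alone (56.1).

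Sce (FBgn0003330, 3R from 27680431 to 27682029, minus strand), the shortest of the 10 genes, had no summit within 5 kb in any thresholded list. The nearest conservative summit lay 24894 bp away, with a signal of 289.2. Before thresholding, replicate 1 had summits of 69.4 and 32.4 in the 3' untranslated region of CG31055, 3603 and 3802 bp upstream of Sce. Replicate 2 had 34.4 past the 3' end of Sce, 4510 bp from the Sce TSS. The ranked peaks of the replicates thus lay at different places.

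Both PRC2 genes had a summit within 100 bp of their TSS, and both starts are shared with a divergent neighbour. E(z) (FBgn0000629, 3L from 10634575 to 10638130, minus strand) had a single summit, at 10638046 in its 5' untranslated region, 84 bp from the E(z) TSS and 100 bp from that of Cnep1r2. Its signal was 545.6, rank 152, with 300.9 in replicate 1 and 241.5 in replicate 2 (271.2 ± 42.0, SD, n = 2), at ranks 181 and 182 of those lists. This was the only one of the 23 summits whose 201 bp window matched elsewhere in the genome over at least 100 bp. It had 2 other matches, and the match given here, in an intergenic stretch of 3L, had 75.0% identity over 104 aligned positions.

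Su(z)12 (FBgn0020887, 3L from 19918242 to 19923462, minus strand) had weaker summits. At 19923441, 21 bp inside the gene and 230 bp from the TSS of the prefoldin gene Pfdn6, the signal was 236.6, with 179.4 in replicate 1 and 62.5 in replicate 2 (121.0 ± 82.7, SD, n = 2). The ratio of 2.87 was exceeded by 2.33% of the peaks found in both lists. At 19923645, 26 bp from the Pfdn6 TSS and 183 bp upstream of Su(z)12, the signal was 105.3, with 104.5 in replicate 1, and it matched the same replicate 2 peak. A summit of 126.0 lay 1378 bp upstream, 103 bp from the TSS of the Golgi gene Grasp65, with a thresholded peak in replicate 2 alone (49.3).

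Sfmbt (FBgn0032475, 2L from 13169649 to 13176785, minus strand) had the strongest summit of the 10 genes, at 13176893, 108 bp upstream of its TSS. The signal was 849.6, rank 5 of the list, with 471.6 in replicate 1 and 385.9 in replicate 2 (428.8 ± 60.5, SD, n = 2), at ranks 6 and 8. The summits of the replicates were 1 bp apart. This region also holds the starts of CG5439, 257 bp away, and CG43925, 470 bp away, so the signal cannot be given to Sfmbt alone. The promoters next above and below in signal were those of Rme-8, an endocytosis gene (885.3), and of the neighbours Arl1 and brm (830.0 for both).

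A second Sfmbt promoter summit, at 13177175 in the same interval, lay 390 bp upstream and 25 bp from the CG5439 TSS. Its signal was 273.4, with 283.9 in replicate 1 and 112.9 in replicate 2 (198.4 ± 121, SD, n = 2), a ratio of 2.52. A further summit lay 4351 bp beyond the 3' end of Sfmbt at 13165298, with 404.0, and with 286.9 in replicate 1 and 117.4 in replicate 2 (202.1 ± 120, SD, n = 2). It is 266 bp from the TSS of Sirt1, a histone deacetylase gene, and 280 bp from that of DnaJ-H, and 11084 bp from the nearest Sfmbt TSS. Inside Sfmbt itself there was no summit.

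pho (FBgn0002521, chromosome 4 from 1172469 to 1181628, minus strand) had no summit within 5 kb in any list, ranked lists included. The nearest conservative summit lay 118269 bp away with a signal of 25.2, and the nearest ranked peaks were 17293 bp away in replicate 1 (31.6) and 17743 bp away in replicate 2 (48.5). Chromosome 4 held 16 conservative summits in all, or 11.9 per Mb, against 42.6 (2R) to 54.4 (3L) per Mb on 2L, 2R, 3L, 3R and X. The ranked lists held 91 peaks on chromosome 4 in replicate 1 and 122 in replicate 2. Transposable elements, 7 of them, cover 48.8% of pho, and 28.6% of the gene is masked. Whether these features bear on the absence of summits was not tested.

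Of the 23 summits, 20 (87.0%) had a thresholded peak in both replicates, against 61.8% of all nuclear peaks of the conservative list. The 23 also had a higher median signal than that list (273.4 against 180.4), and the share among peaks of like signal is not given here. A thresholded peak in replicate 2 alone was found for 2, in replicate 1 alone for 0, and in neither for 1, the Su(z)2 promoter summit. Signal was higher in replicate 1 at 19 of the 20, and over all 3999 peaks found in both lists the ratio of replicate 1 to replicate 2 had a median of 1.32, with a 10th percentile of 0.932 and a 90th of 2.04. Ratios above that upper value were found at Su(z)2, Su(z)12 and Sfmbt. Replicate summits lay a median 23.5 bp apart, and 10 of 20 within 20 bp. In 3 cases 2 neighbouring summits matched the same replicate peak, so their replicate values are not separate measurements.

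**Figure D3:**
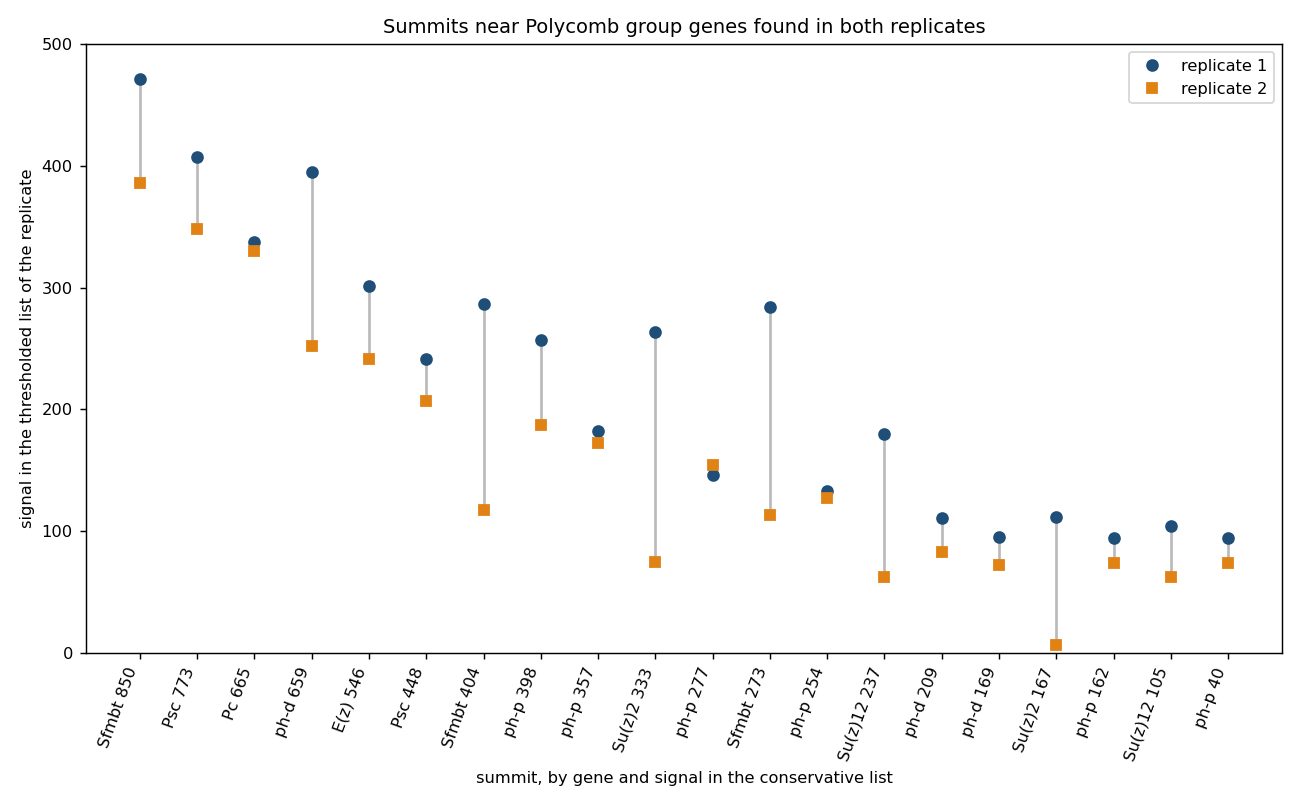
Signal of the 20 summits found in both replicates (vertical axis), in the thresholded list of replicate 1 (circles) and of replicate 2 (squares), ordered and labelled by gene and signal in the conservative list. Replicate 1 is higher at 19 of 20, and the widest gaps are at Su(z)2 (263.6 and 75.0), Sfmbt (283.9 and 112.9, and 286.9 and 117.4) and the ph-d intergenic summit (395.2 and 252.4).

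Stronger summits near these genes were richer in A and T. Over the 23 windows of 101 bp, G and C content had a median of 31.7% (17.8% to 50.5%), against 29.7% over all 6476 summits. The 7 summits with a signal of at least 400 had a median of 24.8%, against 26.7% for the 608 such summits in the list. The 8 with a signal under 200 had a median of 41.1%, against 31.7% for 3657 in the list. Across the 23 summits Spearman's rho between signal and G and C content was -0.67, against -0.33 across all summits. These points share libraries and loci, and the values are a description. A soft-masked base lay at the summit in 6 of the 23, against 27.1% of all summits.

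**Figure D4:**
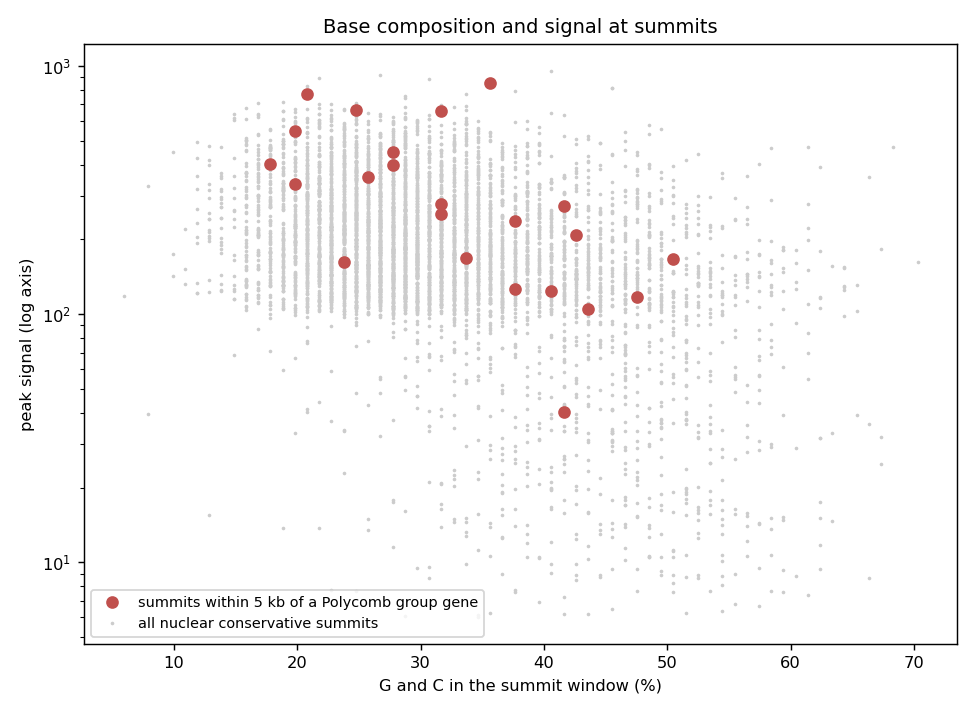
G and C content of the 101 bp window at each summit (%, horizontal axis) against peak signal (log axis) for the 23 summits near Polycomb group genes (large points) and all 6476 nuclear summits (small points). Of the 23, the 7 at or above a signal of 400 lie between 17.8% and 35.6% G and C, and the 8 below 200 reach 50.5%.

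Signal also differed between peaks of the most common width and peaks of other widths. In the conservative list, 28.5% of nuclear peaks have the same width of 560 bp, with a median signal of 124.3, against 223.8 for peaks of other widths. Of the 23 summits, 7 were in peaks of that width, at ph-d, ph-p, Su(z)2 and Su(z)12, with a median of 123.7 and a highest signal of 236.6. The other 16 had a median of 377.4. The part of peak width in these values was not tested.

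Sequence words known from Polycomb response elements and from promoters were searched on both strands within 50 bp of the 23 summits, beside all summits of the list and all promoters (100 to 200 bp upstream of a TSS). The shares of promoters refer to that stretch alone, which leaves out the bases next to the TSS. GCCAT, the core word of the Pho site, was at 2 of 23, against 11.8% of all summits and 14.9% of promoters. These were the Su(z)2 summit at 12991708 and the Su(z)12 summit at 19923645. GAGAG, bound by the GAGA factor, was at 2 of 23, both at Su(z)2, against 8.83% of all summits and 12.1% of promoters. TATCGATA, the DNA replication-related element, was at 1, the Sfmbt promoter, where it can be read in the sequence above, against 1.20% of all summits and 1.15% of promoters. CGATA, a BEAF-32 word that TATCGATA contains, was at 3 (Sfmbt promoter, the summit beyond Sfmbt, and the ph-p summit at 2137866), against 12.8% and 14.3%.

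TATAAA was at 5 of 23, against 27.7% of all summits and 20.6% of promoters, and these 5 were at E(z), ph-d and 3 ph-p summits. CAGCTG, an E-box, was at 2 Su(z)12 summits, against 2.75% of all summits and 3.96% of promoters. GTGTGT, a combgap word, was at 1 (5.27% and 5.38%), and GGGNGG, a word of Spps and related factors, was at 1 (4.20% and 6.44%). TGAGTG, a Zeste word, was at 0, against 3.74% and 3.82%, and GGTCACACT, a word of the motif 1 binding protein, was at 0, against 0.432% and 0.473%. A match is a description of these letters, and an absent match says nothing of the factor.

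A list of 26 other Polycomb-related genes was set beside the 10. Of these, 6 (23.1%) had a promoter summit, 9 (34.6%) a summit in the gene and 15 (57.7%) a summit within 5 kb, against 18.2%, 12.7% and 47.4% of all genes. Among the 9, jing, psq, grh and sba are longer than any of the 10 genes (at most 14998 bp), and longer genes can hold more summits. The share over genes of like length is not given for this list, so its gene-body share is not set apart from gene length. The strongest promoter was that of l(3)73Ah, a RING-finger gene of variant PRC1, with a signal of 636.3 at rank 51, and with 425.2 in replicate 1 and 207.8 in replicate 2 (316.5 ± 154, SD, n = 2). Trl, which encodes the GAGA factor, had 275.1 at its promoter (164.8 and 114.7 in replicates 1 and 2) and grh, a transcription factor gene, had 241.9 (147.0 and 95.7). The promoter summits of phol, the paralogue of pho (128.8, shared with CG3552), psq (109.1) and Dsp1 (21.7, shared with CG9921) were below the median of the list. The Dsp1 summit matched stronger peaks of 287.2 in replicate 1 and 213.3 in replicate 2, and a summit of 495.3 lay within 5 kb of Dsp1. That of psq matched a peak in replicate 2 alone (49.8), and that of phol matched none. Of the 6 listed PRC2 genes other than E(z) and Su(z)12 (esc, escl, Pcl, Jarid2, jing and Caf1-55), 0 had a promoter summit and 3 (Pcl, jing and Caf1-55) had one within 5 kb. The summit within 5 kb of Caf1-55 had a signal of 693.6. In the less strict list and in that of replicate 2 alone, Caf1-55 did have a promoter summit. The difference between the lists was not tested.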

How the data were processed

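CG31441-eGFP was mapped by ChIP-seq with an anti-GFP antibody in 2 biological replicates of whole embryos, as the labels name them. The members and gene lists were chosen with earlier results of these data known. Per the readme deposited with the samples, the series lists were made from filtered alignments of both replicates with 1 further input, and the replicate lists from those of 1 replicate, on dm6; aligner and peak caller: not given in the sources used here. Peak signal is the authors' deposited value on an unstated scale. The score is the authors' deposited scaled IDR, of at most 1000. Summits were taken from the offset the authors deposited. Depth is unknown.

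Ensembl release 115 (BDGP 6.54) gave the genes, and the RefSeq copy of the same assembly gave sequence and masking. A peak of the conservative list was found in a replicate if it overlapped a thresholded peak there by at least 1 bp; the peak whose summit was nearest gave the value. All summits within 5 kb of a member, genes with a TSS within 500 bp of one, listed genes with a promoter summit, and the promoters next in signal to the strongest member were named. Alternatives were other lists, thresholds, windows, annotation and overlaps. Other matches of summit windows were sought with blastn 2.17.0. Tables and figures were made in Python 3.11.15 with pandas 2.3.3, numpy 2.4.6, matplotlib 3.10.9 and scipy 1.17.1, and counting was tested on simulated data.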

Additional observations from a re-analysis of the deposited data

How the results depend on the processing

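The number of Polycomb group genes with a promoter summit was 5 and lay between 4 and 6 over the 9 alternatives. Over all genes the share ran between 13.7% without masked summits and 21.3% with 1000 bp, against 18.2%. The number was 6 in the less strict list, which added Psc (21.0% of all genes). It was also 6 with a window of 1000 bp, which added ph-p. It was 4 in replicate 1 alone and at a score of 1000, where Su(z)2 was lost, and the list of replicate 2 alone held ph-p in place of Su(z)2. The number with a summit in the gene was 6, or 5 without Su(z)2, and the share over all genes ran between 10.5% and 14.0%. The number within 5 kb was 8 in every alternative except 7 when summits on masked bases were left out, which removed the Pc summit; over all genes the share ran between 33.9% with 2 kb and 62.3% with 10 kb, against 47.4%. Of the 23 summits, 18 were in both replicates at a reciprocal overlap of 50%, 19 with the summit inside the replicate peak, and 23 in the ranked lists. The shares over all nuclear peaks at these settings are not given here. Other Polycomb-related genes with a promoter summit numbered between 4 and 7 of 26, where the share over all genes ran between 13.7% and 21.3%. The strongest signal, at Sfmbt in every list, ran between 385.9 and 471.6 in the lists of single replicates, against 849.6 in the conservative list, and the scales of these lists differ. With 100 bp on each side of the summit, GCCAT matched at 6 of 23 summits (23.1% of all summits), GGGNGG at 2 (10.7%), TATAAA at 8 (42.1%) and TGAGTG at 1 (9.0%). No paired analysis was possible because there is 1 group. Depth is unknown, so an absent summit at pho or Sce is no measure of absent binding.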

Other observations

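The ranked lists of the replicates, which are not thresholded, held these summits inside the genes, thresholded ones included. Su(z)2 had 5 in replicate 1 and 10 in replicate 2, of which 0 were thresholded, and the strongest were 72.4 and 56.6, both near its first TSS. Psc had 6 in replicate 1 and 5 in replicate 2, of which 1 was thresholded in each. In ph-p there were 6 in each replicate, 4 of them thresholded, and in ph-d there were 2 in replicate 1 and 4 in replicate 2, of which 2 were thresholded in each. E(z) and Su(z)12 had 1 each in both replicates, all thresholded. Pc, Sce, Sfmbt and pho had 0 in both. The ranked lists hold 27371 peaks in replicate 1 and 31490 in replicate 2, with median signals of 33.2 and 20.5.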
